A study of Mus musculus with 6 samples.

Results

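The D-type cyclins and the other regulators of the G1 phase of the cell cycle were followed in explants of mouse mesoderm treated with either of 2 inhibitors. The 10 genes, taken by their symbols from the deposited tables of 46078 genes, encode the D-type cyclins (Ccnd1, Ccnd2, Ccnd3), their kinases (Cdk4, Cdk6), 2 inhibitors of those kinases (Cdkn1b, Cdkn2c) and the pocket proteins (Rb1, Rbl1, Rbl2). All 10 were among the 15568 genes that passed the filter on low counts. The explants came from embryos at E7.25 (late streak or no bud), were freed of other tissue with trypsin and pancreatin, and were left for 3 to 4 h to attach to fibronectin. PD explants received 1 µM of an inhibitor that the labels name only as PD for 16 h, YZ9 explants received 10 µM YZ9 for 16 h, and control explants received neither, with 2 libraries in each group. YZ9 is a compound described as blocking PFKFB3, whose product stimulates glycolysis. All groups share the labelled genotype WT, although the series description names TCF/Lef:H2B-GFP reporter mice. The culture time is given as 27 h in the sample labels and 24 h in the series description. Whether the controls received the solvent, and how many embryos went into a library, is not stated in the sources used here. P-values therefore cover only the spread among the libraries, which for the controls may be technical. By Xist and Y-linked counts the 2 PD libraries read as different sexes, as did the 2 YZ9 libraries, so neither pair repeats 1 sample.

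D-type cyclins are the part of the cell cycle engine that responds to growth factors. Each binds Cdk4 or Cdk6, and the active kinase phosphorylates the pocket proteins, which otherwise hold E2F transcription factors in check and keep genes of DNA replication silent. Cdkn2c encodes p18-INK4c, which binds Cdk4 and Cdk6 and keeps the cyclin away, and Cdkn1b encodes p27-KIP1, which binds whole cyclin and kinase complexes. In many cell types signalling through the kinase ERK raises transcription of Ccnd1. Cells of the gastrulating mouse embryo are known for short cycles with a brief G1 phase.

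Total counts were 21253194 to 27810161 per library, and 20112 to 20933 genes had a count. Values are given as CPM, the reads of a gene relative to the size of its library, scaled between libraries by TMM, a normalization of library composition, and an adjusted p is that of edgeR's quasi-likelihood test over all 15568 genes with a threshold of 0.05. Of 15 targets of ERK signalling tested, edgeR called 4 (Spred1, Spry4, Egr1, Spry2) lower with PD, beside 0.0771% of all genes tested. It called 0 higher, beside 0.0193%. The unadjusted p of edgeR was under 0.05 for 14 with PD, beside 10.8% of all genes, and for 1 with YZ9, beside 11.3%. Log2 fold changes were below 0 for 14 with PD and 11 with YZ9. With YZ9 edgeR called 0 of the 15, beside 0.00642% of all genes lower and 0% higher. Neither DESeq2 nor limma-trend called any, beside 1.94% of the 26291 genes with a count and 0.00642% of the 15568 genes. The median log2 fold change of these targets was -4.05 with PD, also with the 3 genes at 0 counts in both PD libraries (Etv4, Etv5, Spry4) set to a floor of 3 counts over the group, and -0.14 with YZ9. Xist and Y-linked counts read both controls, PD replicate 1 and YZ9 replicate 1 as male and the second PD and YZ9 libraries as female, so sex is unevenly spread over the groups. Of 18 mesoderm markers, Hand1, Bmp4, Tbx20, Pdgfra and Mef2c were well detected, while T, Tbx6 and Mesp1 of the early streak had 0 to 8 counts in a library. Mixl1 of the same list had 1 and 6 counts with PD, 21 and 326 with YZ9, and 93 and 39 in controls. Summed markers of epithelium and definitive endoderm, mostly keratins, were 12063 and 7745 CPM with PD, 7301 and 5789 CPM with YZ9, and 6150 and 5220 CPM in controls. The sum was higher in both PD libraries than in any other, but log2 fold changes were above 0 for 12 of 13 tested markers with PD (median 1.70) and for 11 of 13 with YZ9 (median 1.57). Cdh1, the gene of E-cadherin, had 79.8 and 21.6 CPM with PD, 113 and 30.7 CPM with YZ9, and 1.84 and 3.802 CPM in controls. Cer1 was at 0 in 5 of 6 libraries. In bulk RNA, fewer cells of a type and less RNA per cell cannot be told apart, and the part of cell composition in the results below was not tested.

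Ccnd1 and Ccnd2 fell in PD explants, and Ccnd3 did not pass the test. Ccnd1 encodes cyclin D1 and lies at chr7:144929931-144939925 of GRCm38 on the minus strand (ENSMUSG00000070348). Its level was 9.26 and 9.62 CPM in the PD libraries, 94.0 and 69.8 CPM in the YZ9 libraries, and 113 and 77.6 CPM in the control libraries. Both PD libraries lay far below every other library and close to each other, while the ranges of YZ9 and control overlapped. Ccnd1 was 10.1-fold lower with PD than in controls (log2 fold change -3.34, SE 0.26, 95% interval -3.97 to -2.70, adjusted p = 0.0378, n = 2 against 2 in a fit across all genes with edgeR). These values rest on 241 and 239 reads in the PD libraries and on 3023 and 2062 in the controls.

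Ccnd2, the gene of cyclin D2, lies at chr6:127125162-127152193 on the minus strand (ENSMUSG00000000184). It had 101 and 126 CPM with PD, 466 and 325 CPM with YZ9, and 563 and 477 CPM in controls. All 3 groups were apart, with PD lowest and both controls above both YZ9 libraries. Ccnd2 was 4.58-fold lower with PD than in controls (log2 fold change -2.19, SE 0.23, 95% interval -2.74 to -1.65, edgeR adjusted p = 0.0466). The calls rested on both control libraries: without control replicate 1 the adjusted p was 0.342 for Ccnd1 and 0.377 for Ccnd2, and without control replicate 2 it was 0.257 and 0.419, while the log2 fold changes stayed between -3.59 and -3.04 for Ccnd1 and between -2.36 and -2.04 for Ccnd2. Without PD replicate 1 and without PD replicate 2 Ccnd2 also missed the threshold, at adjusted p of 0.0774 and 0.0568, and among male libraries, with 1 PD library against 2 controls, the log2 fold change was -3.36 for Ccnd1 and -2.36 for Ccnd2.

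Ccnd3, the gene of cyclin D3, lies at chr17:47505051-47599691 on the plus strand (ENSMUSG00000034165). It had 111 and 289 CPM with PD, 278 and 215 CPM with YZ9, and 319 and 115 CPM in controls. The libraries within PD and within control differed more than the group means of 200.2, 246 and 217 CPM did. With PD the log2 fold change was -0.12 (SE 0.57, 95% interval -1.47 to 1.24, edgeR adjusted p = 0.977), an interval that leaves room for more than a 2-fold difference either way. Its sign turned with 1 library, to 0.80 without control replicate 1 and 0.42 without PD replicate 1.

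**Figure D1:**
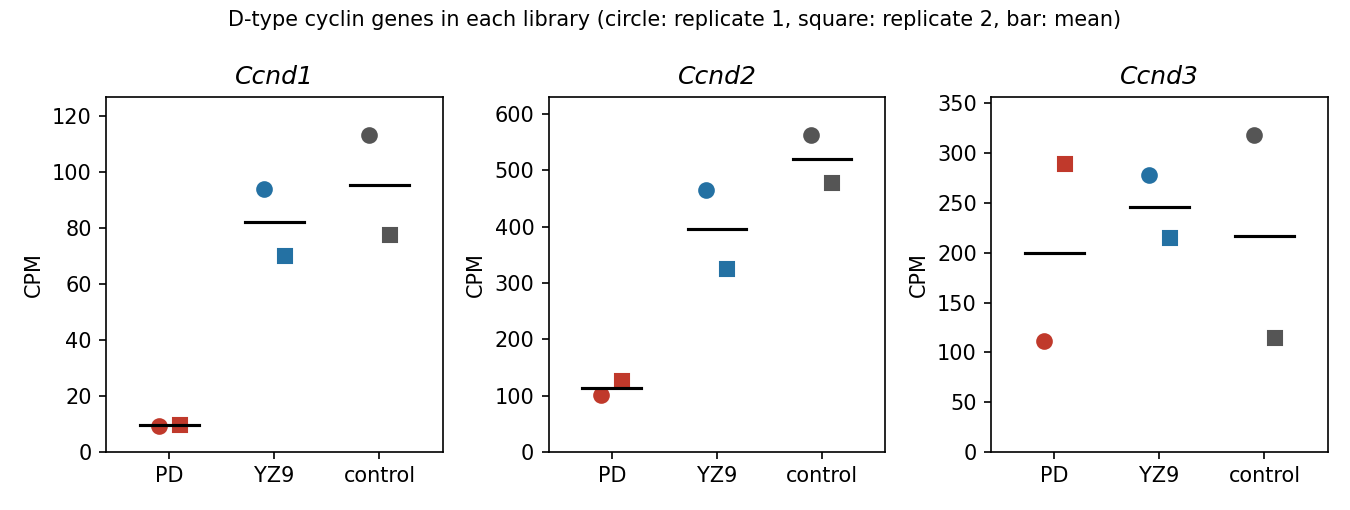
CPM (TMM-scaled, linear axes that start at 0) of Ccnd1, Ccnd2 and Ccnd3 in each library of PD, YZ9 and control explants, with circles for replicate 1, squares for replicate 2 and a bar for the mean. Ccnd1 at 9.26 and 9.62 CPM and Ccnd2 at 101 and 126 CPM with PD lie below every YZ9 and control library, and the Ccnd3 points overlap.

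With YZ9 no D-type cyclin gene passed the test. The log2 fold change against control was -0.22 for Ccnd1 (SE 0.24, 95% interval -0.79 to 0.35, edgeR adjusted p = 0.752). It was -0.40 for Ccnd2 (SE 0.22, 95% interval -0.92 to 0.12, adjusted p = 0.541) and 0.18 for Ccnd3 (SE 0.57, adjusted p = 0.926). Without control replicate 1 the log2 fold change of Ccnd1 with YZ9 was 0.08, and without control replicate 2 that of Ccnd3 was -0.37, each with its sign turned. The Ccnd2 interval excludes a fall as large as that seen with PD. In the direct comparison of PD with YZ9, Ccnd1 was 8.67-fold lower with PD (log2 fold change -3.12, SE 0.26, edgeR adjusted p = 0.0276). Ccnd2 was 3.48-fold lower with PD but missed the threshold (log2 fold change -1.80, SE 0.22, 95% interval -2.33 to -1.26, adjusted p = 0.0595). Ccnd1 was 1 of 7 genes called lower with PD than with YZ9, which is 0.045% of genes tested, beside 12 genes or 0.0771% called higher. Without control replicate 1 or 2, which enter the comparison of PD with YZ9 only through the shared spread, the adjusted p of Ccnd1 was 0.154 and 0.150; without PD replicate 2 it was 0.0526, and with only the 4 PD and YZ9 libraries 0.194. Ccnd2 passed in 5 of 15 alternative settings of this comparison.

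To set the cyclins beside each other, levels were divided by the length of the merged exons of each gene. These lengths join all annotated exons and were 4709, 9409 and 8775 bases for Ccnd1, Ccnd2 and Ccnd3. Which transcripts were expressed was not tested, so sums, their ratios, shares and the order between genes depend on these lengths. The summed level of the 3 genes was 25.4 and 48.4 CPM per kb with PD, 101 and 73.8 CPM per kb with YZ9, and 120.3 and 80.3 CPM per kb in controls. Both PD sums lay below all others, and the mean of PD was 0.368 of the control mean, with leave-one-out ratios of 0.253 to 0.483. The ratio of YZ9 to control was 0.873. It rose to 1.01 without YZ9 replicate 2 and to 1.09 without control replicate 1, and it fell without YZ9 replicate 1 or without control replicate 2. Within the sum, Ccnd1 made up 7.75% and 4.22% with PD, 19.7% and 20.1% with YZ9, and 20.01% and 20.5% in controls. Ccnd3 made up 49.9% and 68.1% with PD, 31.3% and 33.2% with YZ9, and 30.2% and 16.3% in controls. Ccnd2 held the largest share in all YZ9 and control libraries and Ccnd3 in both PD libraries, since a share of Ccnd3 is set by the fall of the other two as well as by its own level.

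**Figure D2:**
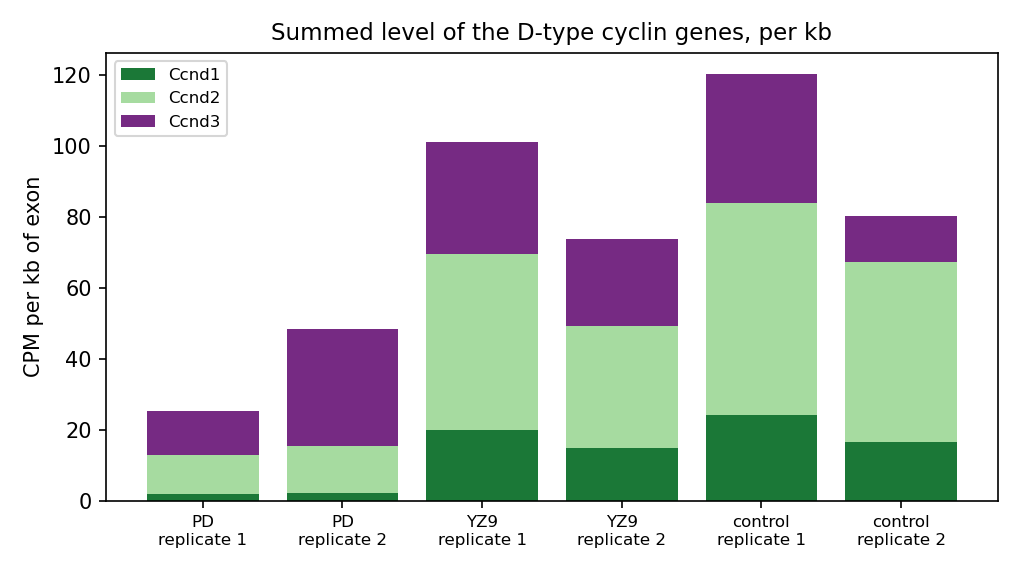
Stacked bars give the level of Ccnd1, Ccnd2 and Ccnd3 in CPM per kb of merged exon (axis from 0) in each PD, YZ9 and control library. The bars reach 25.4 and 48.4 with PD, 101 and 73.8 with YZ9 and 120.3 and 80.3 in controls, and the Ccnd1 and Ccnd2 layers shrink with PD.

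Of the partner kinases, Cdk4 was the steadiest member and the most abundant per length, and Cdk6 was lower in both inhibitor groups without passing the test. Cdk4 (ENSMUSG00000006728, chr10:127063534-127067920, plus strand) had 756 and 719.8 CPM with PD, 678 and 689.8 CPM with YZ9, and 727 and 684 CPM in controls. PD replicate 1 lay above the control range and YZ9 replicate 1 below it, with the other two treated libraries inside. The log2 fold change was 0.07 with PD (SE 0.12, 95% interval -0.23 to 0.36, edgeR adjusted p = 0.933) and -0.04 with YZ9 (SE 0.12, 95% interval -0.34 to 0.25, adjusted p = 0.917). These are the narrowest intervals among the 10 genes. Per kb, Cdk4 averaged 227 ± 7.92 CPM with PD, 211 ± 2.52 CPM with YZ9 and 217 ± 9.47 CPM in controls (SD, n = 2 each).

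The promoter of Cdk4 is shown because Cdk4 is the member with the least change. The sequence is from RefSeq (GRCm38.p6), 250 bases just before the RefSeq start, chr10:127063285-127063534 on the plus strand, with matches to the E-box CACGTG, the motif bound by MYC and its partners, and to the GC box GGGCGG in capitals on either strand.
Cdk4: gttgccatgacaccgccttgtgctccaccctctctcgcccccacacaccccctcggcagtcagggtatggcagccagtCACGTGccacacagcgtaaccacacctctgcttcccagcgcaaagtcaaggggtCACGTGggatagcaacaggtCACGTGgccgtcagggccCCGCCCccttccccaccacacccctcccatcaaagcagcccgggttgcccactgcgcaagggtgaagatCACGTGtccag
The window holds 4 E-boxes, whose first bases lie at -172, -118, -98 and -11 relative to the start, and 1 GC box at -80, none overlapping another. An E-box was present in 6.02% and a GC box in 32.7% of 32851 promoter windows of the same length.

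Cdk6 (ENSMUSG00000040274, chr5:3341485-3531008, plus strand) had 86.8 and 41.2 CPM with PD, 109.5 and 76.0 CPM with YZ9, and 135 and 156 CPM in controls. All 4 treated libraries lay below both controls, while PD and YZ9 overlapped. The log2 fold change was -1.18 with PD (SE 0.36, 95% interval -2.05 to -0.32, edgeR adjusted p = 0.286) and -0.65 with YZ9 (SE 0.36, adjusted p = 0.544). In the authors' deposited table Cdk6 had a log2 fold change of -1.18 with PD and an adjusted p of 0.0406, past the same threshold. DESeq2 on all 6 libraries gave 0.0551, and edgeR without a filter on low counts gave 0.00525. The size moved with the PD library, to -1.82 without PD replicate 1 and -0.74 without PD replicate 2. The ratio of Cdk4 to Cdk6 per length was 37.5 and 75.2 with PD, 26.7 and 39.1 with YZ9, and 23.2 and 18.9 in controls, so Cdk4 was the main kinase transcript in every library.

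**Figure D3:**
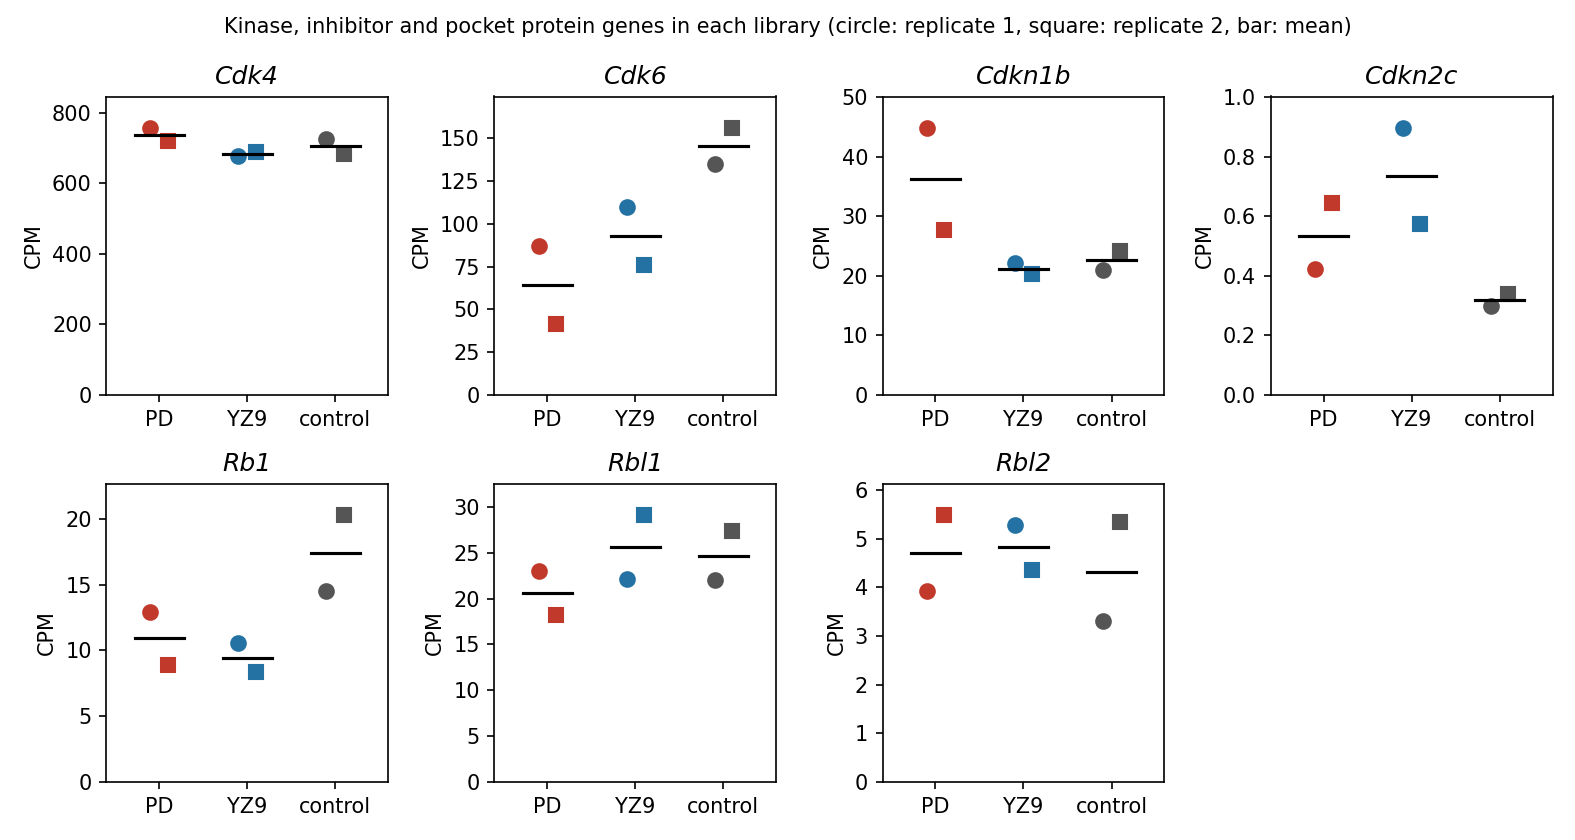
CPM (TMM-scaled, linear axes that start at 0) of the kinase, inhibitor and pocket protein genes in each PD, YZ9 and control library, with circles for replicate 1, squares for replicate 2 and a bar for the mean. Cdk4 is level at 678 to 756 CPM, all PD and YZ9 points of Cdk6 and Rb1 lie below the controls, and both PD points of Cdkn1b lie above all others.

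Of the inhibitors, Cdkn1b was higher in both PD libraries and Cdkn2c was barely detected, and neither passed the test. Cdkn1b (ENSMUSG00000003031, chr6:134920401-134925513, plus strand) had 44.8 and 27.7 CPM with PD, 22.2 and 20.3 CPM with YZ9, and 21.0 and 24.2 CPM in controls. Both PD libraries exceeded all others, and YZ9 overlapped control. With PD the log2 fold change was 0.68 (SE 0.28, 95% interval 0.02 to 1.34, unadjusted p = 0.0444, edgeR adjusted p = 0.441), and it was 0.30 without PD replicate 1 and 0.99 without PD replicate 2. With YZ9 it was -0.09 (SE 0.27, 95% interval -0.75 to 0.57, adjusted p = 0.925), and PD against YZ9 gave 0.77 (SE 0.28, adjusted p = 0.380).

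Cdkn2c (ENSMUSG00000028551, chr4:109660876-109667189, minus strand) had 11 and 16 reads with PD, 20 and 17 reads with YZ9, and 8 and 9 reads in controls. The exact Poisson 95% intervals of these counts, which cover counting error only, run from 5.49 to 19.7 for PD replicate 1 and from 4.12 to 17.1 for control replicate 2 and so overlap. Fitted log2 fold changes were 0.73 with PD (SE 0.68, edgeR adjusted p = 0.822) and 1.18 with YZ9 (SE 0.67, 95% interval -0.42 to 2.79, adjusted p = 0.556). Every treated library had a higher level than both controls, and neither comparison passed the test. Cdkn2c passed the filter on low counts only through the treated libraries, so this order carries no weight.

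Among the pocket proteins, Rb1 was lower in both inhibitor groups without passing the test, and Rbl1 and Rbl2 overlapped between groups. Rb1 (ENSMUSG00000022105, chr14:73183673-73325822, minus strand) encodes the retinoblastoma protein. It had 12.9 and 8.90 CPM with PD, 10.6 and 8.33 CPM with YZ9, and 14.5 and 20.3 CPM in controls. Every treated library lay below both controls. The log2 fold change was -0.67 with PD (SE 0.31, 95% interval -1.43 to 0.08, edgeR adjusted p = 0.532) and -0.88 with YZ9 (SE 0.32, 95% interval -1.64 to -0.12, adjusted p = 0.388).

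Rbl1 (ENSMUSG00000027641, chr2:157145893-157204534, minus strand) encodes p107, which binds E2F4 and E2F5. It had 23.1 and 18.2 CPM with PD, 22.2 and 29.1 CPM with YZ9, and 22.1 and 27.3 CPM in controls. The groups overlapped, at log2 fold changes of -0.26 with PD (SE 0.25, edgeR adjusted p = 0.835) and 0.05 with YZ9 (SE 0.25, adjusted p = 0.952). Rbl2 (ENSMUSG00000031666, chr8:91070057-91123844, plus strand) encodes p130, the pocket protein known from quiescent cells. It had 3.92 and 5.47 CPM with PD, 5.28 and 4.35 CPM with YZ9, and 3.30 and 5.34 CPM in controls, and the groups overlapped. Its log2 fold change was 0.12 with PD (SE 0.39, adjusted p = 0.967) and 0.16 with YZ9 (SE 0.39, adjusted p = 0.905).

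The promoter of Rbl1 is shown because the family it belongs to acts on E2F. It is the RefSeq window (GRCm38.p6) of 250 bases before the gene's start, chr2:157204535-157204784 on the minus strand, printed in the direction of transcription. Capitals mark matches on either strand to an E2F motif TTTNNCGC, the core CCGGAA of ETS factors and the GC box GGGCGG.
Rbl1: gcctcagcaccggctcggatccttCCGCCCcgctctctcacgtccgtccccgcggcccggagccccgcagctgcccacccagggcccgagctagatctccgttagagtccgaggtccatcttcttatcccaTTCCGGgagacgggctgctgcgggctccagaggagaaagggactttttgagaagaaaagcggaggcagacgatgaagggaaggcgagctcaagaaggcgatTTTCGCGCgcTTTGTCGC
The window holds 2 E2F motifs, whose first bases lie at -18 and -8 relative to the start, 1 ETS core at -119 and 1 GC box at -226, none overlapping another. An E2F motif was present in 4.28% and the ETS core in 12.03% of the 32851 windows. The CCAAT box (CCAAT, in 33.9% of windows), the AP-1 motif (TGANTCA, in 6.75%) and the CRE (TGACGTCA, in 1.55%) were searched in the same way and were in neither the Cdk4 nor the Rbl1 window. RefSeq windows were found for 7 of the 10 genes (Ccnd3, Cdk4, Cdk6, Cdkn1b, Cdkn2c, Rbl1 and Rbl2).

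The order of levels per kb of merged exon, which depends on those lengths, placed Cdk4 first and Rbl2 and Cdkn2c last in all 3 groups. In controls Ccnd2 followed Cdk4 at 55.3 ± 6.50 CPM per kb, then Ccnd3 at 24.7 ± 16.4 and Ccnd1 at 20.3 ± 5.36 CPM per kb, which overlapped (SD, n = 2). In PD explants Ccnd3 followed Cdk4 at 22.8 ± 14.3 CPM per kb and overlapped Ccnd2 at 12.1 ± 1.87 CPM per kb. Ccnd1, the fourth gene in controls, was the seventh in PD explants at 2.01 ± 0.05 CPM per kb, and overlapped Rb1 at 1.81 ± 0.47 CPM per kb. In YZ9 explants the order of the cyclins was that of the controls, with Ccnd2 at 42.0 ± 10.6, Ccnd3 at 28.1 ± 5.13 and Ccnd1 at 17.4 ± 3.63 CPM per kb.

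Counted together against control, 2 of the 10 genes (Ccnd1, Ccnd2) were called lower with PD by edgeR, beside 12 of all genes tested or 0.0771%, and 0 were called higher, beside 3 or 0.0193%. DESeq2 called the same 2 of the 10, beside 2.3% of the 26291 genes with a count, and limma-trend the same 2, beside 0.128% of its genes. DESeq2 gave part of the 26291 genes no adjusted p, so its shares among genes with an adjusted p are higher than those printed. By edgeR 4 of the 10 had an unadjusted p under 0.05, beside 10.8% of all genes. With YZ9 edgeR called 0 of the 10. DESeq2 and limma-trend called 0 as well, beside 1.94% of the 26291 genes with a count and 0.00642% of the genes limma-trend tested. By edgeR 1 of the 10 (Rb1) had an unadjusted p under 0.05, beside 11.3% of all genes. Among all genes, edgeR called 1 lower with YZ9, or 0.00642%, which was Tubb1, a tubulin gene of platelets named after its values were seen, and 0 higher, or 0%. By the looser count of both treated libraries beyond both controls, 4 of 10 lay lower with PD (Ccnd1, Ccnd2, Cdk6, Rb1), beside 19.5% of all genes, and 2 of 10 higher (Cdkn1b, Cdkn2c), beside 19.2%. With YZ9 3 of 10 lay lower (Ccnd2, Cdk6, Rb1), beside 24.5%, and 1 of 10 higher (Cdkn2c), beside 21.1%. Of these 4 shares, that of lower genes with PD lies farthest from the share over all genes, and it includes the 2 genes called by the test. The comparisons share the control libraries. Cdkn2c, with 8 and 9 reads in controls, passed the filter on low counts only through its treated libraries. Its place among the higher genes is therefore no evidence of a rise.

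**Figure D4:**
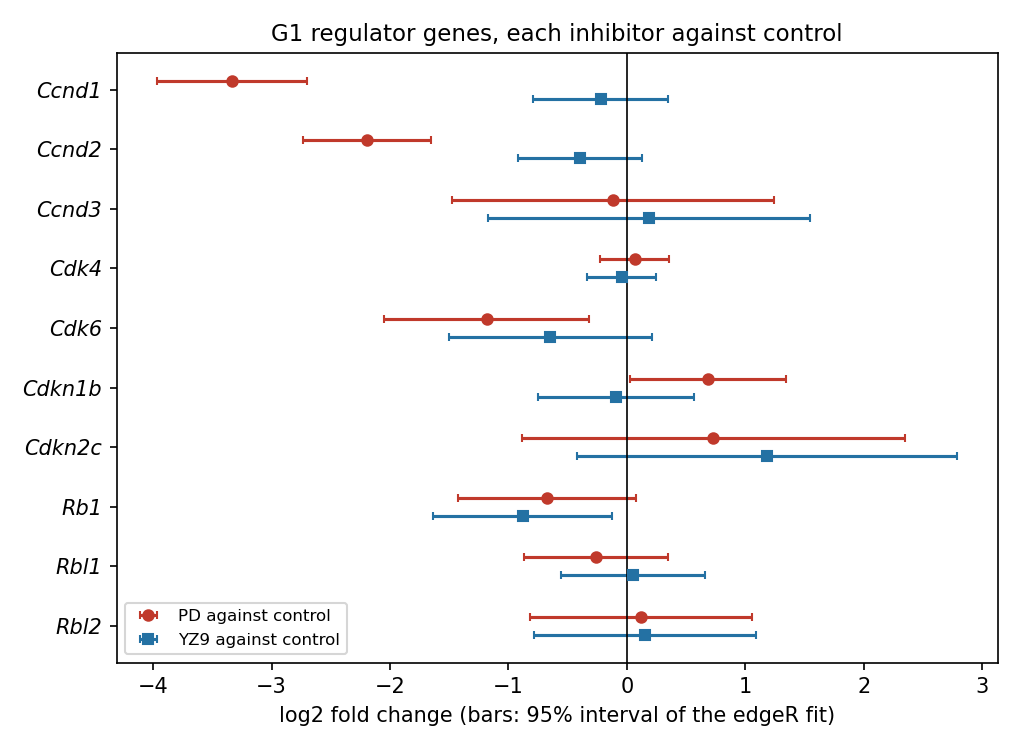
Log2 fold changes of the 10 genes for PD against control (circles) and YZ9 against control (squares), with bars for the 95% interval of the edgeR fit, unadjusted for the number of genes. The intervals of Ccnd1 (-3.97 to -2.70) and Ccnd2 (-2.74 to -1.65) with PD lie farthest from 0, and Cdk4 has the narrowest.

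The library kit keeps no strand, so reads in exons shared with a gene on the opposite strand cannot be assigned. Exons of Ccnd1 share 1100 bases, 23.4% of their length, with LTO1, which had 734 and 757 reads with PD, 664 and 802 reads with YZ9, and 856 and 786 reads in controls. LTO1 did not pass the test with PD (log2 fold change -0.07, edgeR adjusted p = 0.957). Ccnd2 shares 372 bases with Gm43126, at 0 reads in every library, and 368 bases with 9330179D12Rik, at 3 to 10 reads. Cdk4 shares 19.7% of its exons with Tspan31, and parts of Ccnd3, Cdk6, Rb1 and Rbl2 are shared in the same way. Rb1 shares 488 bases with Rcbtb2, whose part in the Rb1 values was not tested. Rcbtb2 had a log2 fold change of -0.08 with PD (edgeR adjusted p = 0.952) and -0.35 with YZ9 (adjusted p = 0.540). Rb1 also shares 408 bases with Lpar6, which had 3368 and 1427 reads with PD, 2757 and 2870 reads with YZ9, and 3921 and 4660 reads in controls. Like Rb1, Lpar6 was lower in every treated library than in both controls without passing the test, at a log2 fold change of -0.79 with PD (edgeR adjusted p = 0.531) and -0.55 with YZ9 (adjusted p = 0.609), and its part in the Rb1 values was not tested. The processed copy Ccnd3-ps had 0 to 4 reads.

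Around the 10 genes, the rest of the G1 pathway gave no calls by edgeR at 0.05 in any of the 3 comparisons. This covers 5 other CDK inhibitors, 5 tested genes of cyclins E and A and CDK2, 10 E2F and DP genes, 6 tested genes of the DREAM complex, 13 genes of cyclin D and p27 turnover, 3 of the CDK-activating kinase, 30 replication genes driven by E2F and 30 genes of G2 and mitosis. Of the 102 genes tested in these lists, edgeR gave an unadjusted p under 0.05 for 4 with PD, 4 with YZ9 and 8 in PD against YZ9, beside 10.8%, 11.3% and 11.5% of all genes. DESeq2 called 3, 2 and 2 of 103 in the same order, beside 2.3%, 1.94% and 1.97% of all genes with a count. Those shares are higher among only the genes to which DESeq2 gave an adjusted p. By limma-trend 0 of 102 were called, beside 0.128%, 0.00642% and 0.218%. The median log2 fold change with PD was -0.03 for the inhibitors, -0.09 for cyclins E and A, -0.05 for E2F and DP, -0.03 for DREAM, 0.08 for turnover and 0.03 for the CDK-activating kinase, beside 0.00 over all genes and -0.19 over the 10 members. With YZ9 the same medians were -0.16, -0.07, 0.03, -0.04, 0.03 and -0.17, beside 0.00 over all genes and -0.07 over the 10 members. Replication genes had a median of -0.05 with PD, with 12 above 0 and 18 below, and 0.07 with YZ9, with 21 above and 9 below. Genes of G2 and mitosis had a median of 0.07 with PD, with 22 above 0 and 8 below, and 0.08 with YZ9, with 20 above and 10 below. With sex as a covariate the medians were -0.18 and -0.09 for replication with PD and YZ9 and -0.09 and -0.05 for mitosis, so the sign of 3 of these 4 turned.

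By edgeR none of the named genes of these lists passed the test either. Cdkn1a, the gene of p21, had 331 and 359 CPM with PD, 423 and 273 CPM with YZ9, and 653 and 685 CPM in controls. All 4 treated libraries lay below both controls (log2 fold change -0.95 with PD, SE 0.22, adjusted p = 0.187, and -0.94 with YZ9, SE 0.22, adjusted p = 0.228). DESeq2 called 1 of the 5 other inhibitors lower in each comparison with control, beside 313 with PD and 357 with YZ9 of the 26291 genes with a count. E2f3, an activating E2F, averaged 20.9 ± 2.13 CPM with PD, 36.1 ± 1.91 CPM with YZ9 and 39.2 ± 9.01 CPM in controls (SD, n = 2 each), with a log2 fold change of -0.90 with PD and an adjusted p of 0.225. Usp2, a deubiquitinase that stabilizes cyclin D1, averaged 34.8 ± 11.6 CPM with PD, 17.4 ± 2.69 CPM with YZ9 and 15.2 ± 1.55 CPM in controls, at 1.19 with PD and an adjusted p of 0.214. Cryab, a chaperone that takes part in cyclin D1 ubiquitination, averaged 1074 ± 242 CPM with PD, 416 ± 133 CPM with YZ9 and 911 ± 96.2 CPM in controls, at -1.13 with YZ9 and an adjusted p of 0.231. Rrm2, the ribonucleotide reductase subunit made in S phase, averaged 440.4 ± 84.3 CPM with PD, 666 ± 149.97 CPM with YZ9 and 612 ± 45.6 CPM in controls, at -0.47 with PD and an adjusted p of 0.501. The other genes named by the rule also missed the threshold. Their log2 fold changes with PD were -0.26 for Cdc25a, -0.22 for Lin52, 0.07 for Mnat1 and 0.37 for Bub1b, and with YZ9 -0.33 for Cdc25a, 0.33 for Tfdp2, 0.37 for Mybl2, -0.27 for Mnat1, 0.40 for Mcm5 and 0.56 for Aurkb, at adjusted p of 0.418 to 0.951.

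**Figure D5:**
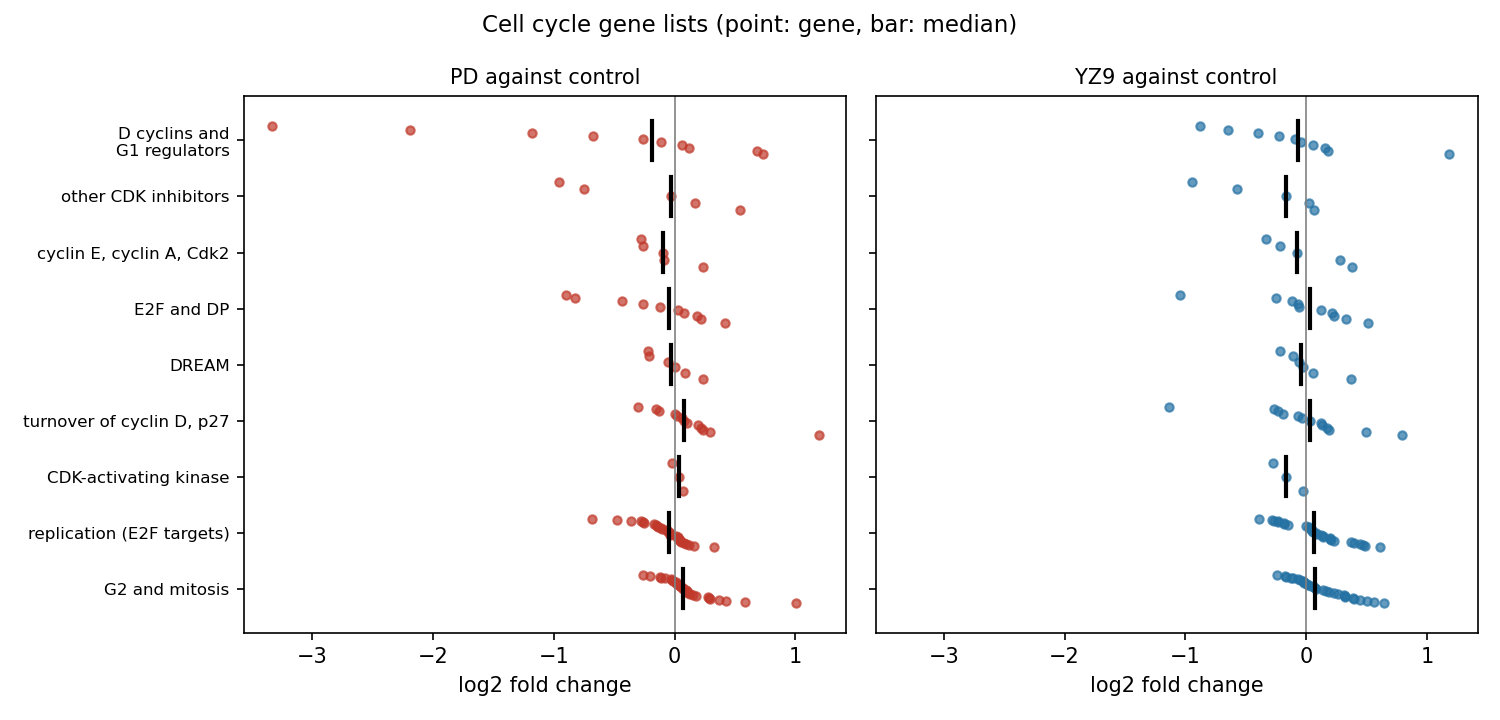
Each point is the log2 fold change of 1 gene against control, with PD on the left and YZ9 on the right, by gene list, and black bars mark medians. Ccnd1 at -3.34 and Ccnd2 at -2.19 with PD lie apart from the genes of the other lists, whose medians lie between -0.09 and 0.08 with PD and between -0.17 and 0.08 with YZ9.

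Likeness of pattern was measured as the root mean square difference of log2(CPM + 0.5), centred on each gene's mean over the 6 libraries, among 8682 genes with a mean of at least 10 CPM. The 5 genes most like Ccnd1 were Spred1 at 0.23, Spry1 at 0.27, Dock5 at 0.40, Dusp4 at 0.41 and Frzb at 0.46. Spred1 and Spry1 encode feedback inhibitors of receptor tyrosine kinase signalling, Dusp4 a phosphatase of MAP kinases, Dock5 an activator of Rac and Frzb a secreted WNT antagonist. Spred1 had 6.88 and 6.84 CPM with PD, 53.0 and 42.3 CPM with YZ9, and 53.0 and 49.9 CPM in controls, and it fell with PD (log2 fold change -2.91, SE 0.21, edgeR adjusted p = 0.0378). The 5 genes most like Ccnd2 were Tmem204 at 0.23, Chn2 at 0.23, Mylk3 at 0.24, Hsd11b2 at 0.25 and Dcaf12l1 at 0.29. Chn2, a GTPase-activating protein for Rac, had 4.42 and 3.78 CPM with PD, 17.8 and 16.6 CPM with YZ9, and 23.2 and 24.7 CPM in controls, and it fell with PD (log2 fold change -2.54, adjusted p = 0.0417). Ccnd2 itself was the 12th gene in likeness to Ccnd1, at 0.56. The 2 lists of 5 share no gene. Likeness was measured on the same 6 libraries, so a fall with PD in these genes follows from their choice.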

How the data were processed

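Polyadenylated RNA of 6 libraries, 2 for each of PD, YZ9 and control explants, was sequenced after a low-input template-switching preparation without strand. Per the submitters' processing notes, CASAVA 1.8.2, STAR 2.7.9a and DESeq2 1.40.1 were used with GRCm38; how reads were counted, and with which annotation, is not given in the sources used here. Per the file headers, the deposited tables hold whole-number counts per gene and library, and the control counts are the same in both tables. The deposited normalized signal (each count divided by a size factor) was not used. The deposited log2 fold change, test score and p-value columns are the authors' DESeq2 results, used here only for Cdk6.

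Counts were joined into 1 table, filtered with filterByExpr (minimum count 10, minimum total 15; 15568 genes left), scaled by TMM and tested with edgeR 4.0.16 in R 4.3.3 (glmQLFit, glmQLFTest, all 6 libraries in 1 fit, 2-sided, Benjamini-Hochberg over all genes, threshold 0.05). Standard errors were taken from the F statistic, as the size of the log2 fold change divided by its square root. Total counts were 21253194 to 27810161, and chi-square per gene between libraries of a group was 96.0 in PD, 62.2 in YZ9 and 54.7 in controls, so the spread between libraries sets the precision. Exon lengths, positions and overlaps are from GENCODE M21. Sample groups are those of the labels. Named genes were the 10 members, and from each list up to 4 called genes or, for lists with no call, the gene of smallest p against control for each inhibitor, plus the ERK targets Dusp6, Spry4, Spry2 and Spred1 and the 5 genes most like Ccnd1 and Ccnd2. Dusp6 had 4.38 and 1.13 CPM with PD, 234 and 100.2 CPM with YZ9, and 240.5 and 226 CPM in controls (PD adjusted p = 0.0655). The members and lists were chosen with earlier results of these data known. Alternatives were other size factors, no filter, a stricter filter (mean count 50 or more), DESeq2 1.42.0, limma-trend 3.58.1, the 4 libraries of a comparison, a replicate block, sex as a covariate, male libraries alone and leaving out each library.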

Additional observations from a re-analysis of the deposited data

How the results depend on the processing

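The number of genes called for PD against control, 15, was 712 without a filter, 604 with DESeq2, 124 with sex as a covariate, 428 among male libraries (1 PD, 1 YZ9 and 2 controls) and 1 with a replicate block, and 0 to 33 when a library was left out. For YZ9 against control, 1, it was 556, 510, 122, 183 and 3 in the same order, 5 with the 4 libraries alone, and 0 to 9 with a library left out. For PD against YZ9, 19, it was 601, 518, 173, 132 and 12, 34 with limma-trend, 0 with the 4 libraries alone, and 0 to 35 with a library left out. Of the 10 members, 2 were called with PD, 3 without a filter (Cdk6 added), 0 with the replicate block, and 0 to 2 with a library left out. With YZ9 0 were called under all 15 alternatives. For PD against YZ9, 1 was called, 2 without a filter, with DESeq2, limma-trend, sex as a covariate or male libraries alone, 0 with the 4 libraries alone, and 0 to 1 with a library left out. The causes were not tested. Ccnd1 and Ccnd2 were lower with PD than in controls under all 15 alternatives and past the threshold in 12 and 10. With the replicate block both had an edgeR adjusted p of 0.0591. Same-numbered libraries deviated together at r = -0.117 (PD with control), 0.248 (YZ9 with control) and 0.377 (PD with YZ9) across 15568 genes, which are not independent replicates, so not every pair was above 0.1 and the labels name no shared source. Sex followed the number in PD and YZ9, where the first library read as male and the second as female, but both controls read as male. Where a group keeps 1 library, it is assumed to vary like the others. Scaling by total counts, chosen after seeing the data, gave summed D-type cyclin ratios of 0.367 for PD to control and 0.947 for YZ9 to control. Cdkn2c rests on 8 to 20 reads a library.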

Other observations

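The spread of Ccnd3 within groups was shared by other genes, chosen after the values were seen. By the same measure of likeness over the 6 libraries, Mical1 (0.17), Eef1aknmt (0.17), Ampd2 (0.19), Hk1 (0.19) and P3h1 (0.20) were closest to Ccnd3. Hk1, the gene of a hexokinase, had 13.0 and 30.6 CPM with PD, 34.8 and 20.6 CPM with YZ9, and 29.2 and 14.9 CPM in controls. P3h1, a collagen prolyl hydroxylase, had 59.0 and 124.5 CPM with PD, 124.3 and 81.2 CPM with YZ9, and 109.1 and 49.9 CPM in controls. In both genes PD replicate 1 and control replicate 2 were the lowest libraries, as for Ccnd3, which follows from their choice by likeness. None of the 5 passed the edgeR test with PD, at adjusted p of 0.906 to 0.995. Summed blood and endothelial markers, 805 and 7590 CPM with PD, 289 and 1618 CPM with YZ9, and 2966 and 8153 CPM in controls, ran in another order, and PD replicate 2 and control replicate 2 had the highest sums.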
